A study of Mus musculus with 6 samples.

Results

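The citric acid cycle enzymes described here are 9 genes, Pdha1, Cs, Idh3a, Idh3b, Ogdh, Suclg1, Sucla2, Fh1 and Mdh2, chosen by name and found by gene symbol among the 33006 genes of the count tables. All 9 were present and all 9 passed the filter on low counts, as did 12924 genes in all. RNA was taken from cultured primary pulmonary endothelial cells of C57BL/6 mice. When 80% confluent in an endothelial growth medium, the cells received 300 uM hydrogen peroxide (H2O2), an oxidant, or water as the control, for 6 hours, and 3 libraries were sequenced from each group. Both groups share strain, medium and time, and the labels do not say that the 3 libraries of a group came from separate cultures or animals. If they did not, the p-values measure technical spread only.

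The citric acid cycle, in the mitochondrial matrix, oxidises acetyl groups to carbon dioxide and hands the electrons to the respiratory chain as NADH and reduced flavin. Pyruvate enters through the pyruvate dehydrogenase complex, and the cycle then runs from citrate over isocitrate, 2-oxoglutarate, succinyl-CoA, succinate, fumarate and malate back to oxaloacetate. Endothelial cells are known for making most of their ATP by glycolysis, and their cycle is known to serve also as a source of building blocks. The 2-oxoglutarate dehydrogenase complex is known as an enzyme that peroxide can inactivate as a protein, which RNA counts do not measure.

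H2O2 libraries differed little from controls in these enzymes. Of the 9 genes, 2 fell (Ogdh and Fh1), 1 rose (Idh3b) and 6 did not pass the test, which was the quasi-likelihood test of edgeR, with p-values adjusted by Benjamini and Hochberg's method over all genes tested and a threshold of 0.05. Over all genes tested, 20.5% were called, 9.7% higher and 10.8% lower (1254 and 1395 genes, a balance that turned to 1455 and 1190 with upper-quartile factors), so with 9 genes the members' counts are not far from the background. The log2 fold changes of H2O2 over control ran from -0.13 to 0.11, with a median of -0.06, against a median of -0.00412 over all genes tested. For 5 of the 9 genes the 3 H2O2 libraries did not overlap the 3 controls (4 lower and 1 higher), against 34.6% of all genes tested (18.2% lower and 16.5% higher). Since whole cultures were sequenced, fewer cells of a type and less RNA per cell cannot be told apart.

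The members were well covered, with 1300 to 10790 reads per gene and library. Gene totals per library were 22455388 to 27618679 reads, and no pair within a group looked like a library deposited again (chi-square over its degrees of freedom 1.62 or more). By that measure H2O2 replicate 3 stood apart from H2O2 replicates 1 and 2 (8.61 and 10.96, against 2.71 between the latter), so calls that change without it are given both ways. Of 10 endothelial markers, 9 passed the filter, led by Cdh5, the endothelial cadherin, at 1149 ± 43.7 CPM (gene counts scaled to library size and TMM factor) in the 3 controls and 1197 ± 11.8 CPM in the 3 H2O2 libraries, here and throughout as mean ± SD. The junction gene Cldn5 stood at 0.294 and 0.345 CPM. Of the 9 tested endothelial markers 3 rose (Pecam1, Tek and Emcn) and 0 fell, against 9.7% higher and 10.8% lower over all genes tested. The summed CPM of the list was 4082 to 4168 in controls and 4310 to 4338 with H2O2, without overlap. Whether this bears on the cycle genes was not tested. The summed levels of markers of other cell types overlapped between the groups. The summed CPM of 7 lung epithelial markers was 0.359 to 0.941 in controls and 0.693 to 1.00 with H2O2, with Krt18 the most abundant at 0.603 CPM in controls and Sftpc and Scgb1a1 at 0 throughout. The 8 fibroblast and mural markers summed to 30.1 to 33.04 and 27.9 to 31.9 CPM, led by Dcn, with Col1a2 at 0. Leukocyte markers summed to 157 to 164 and 163 to 170 CPM, nearly all of it Cd68, a lysosomal gene, while Cd3e and Emr1 (the older symbol of Adgre1) were at 0 in all 6 libraries.

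The promoters of the 3 members that passed the test are shown first, as the 250 bases before the RefSeq transcription start (build GRCm38.p6), because motifs were sought there in genes that moved in opposite directions. Each is written 5′ to 3′ on the gene's strand in lower case. Capitals mark a CCAAT box (CCAAT, or ATTGG on the other strand), a GC box (GGGCGG, or CCGCCC on the other strand) or a cyclic AMP response element core (TGACGTC on either strand, so that the palindrome in Ogdh holds overlapping matches).
Idh3b, chr2:130284452-130284701, minus strand: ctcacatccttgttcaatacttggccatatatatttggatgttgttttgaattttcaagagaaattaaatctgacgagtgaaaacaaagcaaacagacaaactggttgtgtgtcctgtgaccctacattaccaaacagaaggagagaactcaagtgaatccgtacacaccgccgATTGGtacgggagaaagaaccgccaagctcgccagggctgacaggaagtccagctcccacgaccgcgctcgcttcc
Ogdh, chr11:6291347-6291596, plus strand, the first of 6 starts listed: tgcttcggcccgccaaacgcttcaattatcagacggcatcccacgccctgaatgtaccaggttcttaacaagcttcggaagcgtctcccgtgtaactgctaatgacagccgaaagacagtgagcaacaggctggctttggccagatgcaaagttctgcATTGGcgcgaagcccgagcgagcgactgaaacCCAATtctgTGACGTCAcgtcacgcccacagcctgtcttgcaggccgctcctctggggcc
Fh1, chr1:175625636-175625885, minus strand: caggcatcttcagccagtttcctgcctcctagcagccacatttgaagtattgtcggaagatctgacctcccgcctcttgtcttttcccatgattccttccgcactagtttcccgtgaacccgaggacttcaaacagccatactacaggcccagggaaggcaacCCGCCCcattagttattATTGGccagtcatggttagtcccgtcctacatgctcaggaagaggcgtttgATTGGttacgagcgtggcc

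All 3 windows held a CCAAT box, the element bound by NF-Y, whether the gene rose or fell. The windows of Idh3b, Suclg1, Sucla2 and Mdh2 lie partly or wholly inside the gene as GENCODE M21 annotates it. The CCAAT box of Idh3b, 76 bases before its RefSeq start, falls inside that annotated gene. So do the GC box of Sucla2 and the response element core of Mdh2 counted below. Over the 8 members with a promoter in the table (all but Idh3a), 4 held one (Cs, Idh3b, Ogdh and Fh1), as did 36.6% of 9430 tested genes with a window of the same length. A GC box, bound by Sp1, was in 4 of the 8 (Cs, Sucla2, Fh1 and Mdh2) and in 60.2% of tested genes. The response element core was in 2 of the 8 (Ogdh and Mdh2) and in 5.03% of tested genes. These 3 motifs were picked after the windows had been read. Cores of factors known for nuclear genes of mitochondria had no match in the 8 windows on either strand: GCATGCG of NRF1 (5.6% of tested genes), AAGGTCA of ERR (2.65%), CCGGAAG of ETS factors (14.1%) and AAGATGG of YY1 (4.43%). The windows held 10 (Fh1) to 23 (Mdh2) CG dinucleotides against a median of 16 in tested genes.

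**Figure D1:**
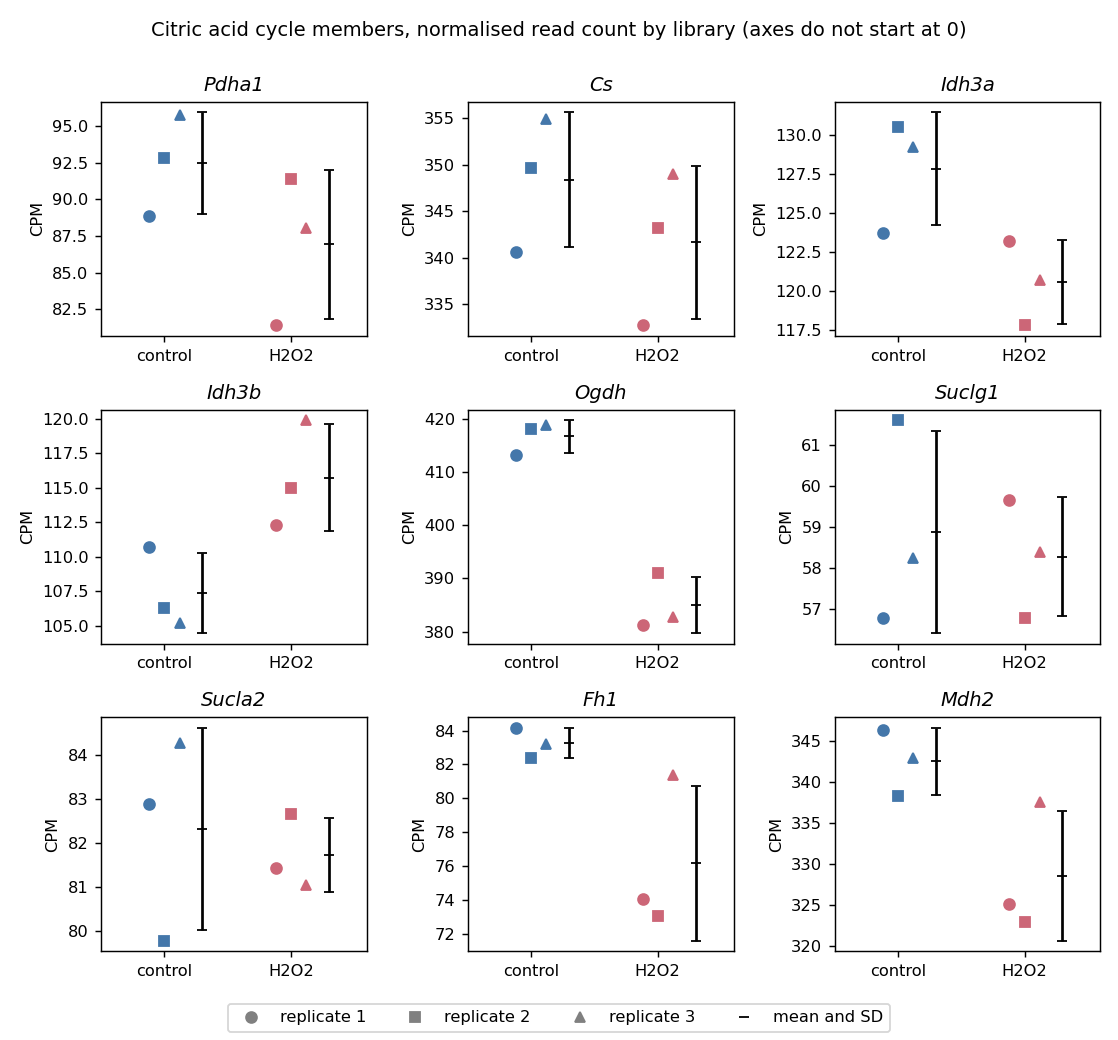
Normalised read count (CPM, y axis, not starting at 0) of each member in the 3 control and 3 H2O2 libraries, with marker shapes for replicate numbers and bars for mean ± SD. The groups do not overlap in Idh3a, Idh3b, Ogdh, Fh1 and Mdh2, and the values of Ogdh with H2O2 (381 to 391 CPM) lie farthest below those of controls relative to their spread.

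At the entry into the cycle, only RNA was counted. The member there is Pdha1, the catalytic alpha subunit of the E1 enzyme of pyruvate dehydrogenase (X chromosome, 160122209 to 160138413, mm10). It stood at 88.9, 92.8 and 95.7 CPM in control replicates 1 to 3 and at 81.4, 91.4 and 88.1 CPM in H2O2 replicates 1 to 3. H2O2 replicate 1 was the lowest of the 6 libraries, and the other H2O2 libraries lay within or just below the control range. The log2 fold change was -0.09 (SE 0.0416, 95% interval -0.17 to -0.00191; edgeR adjusted p = 0.15), so Pdha1 did not pass, and without H2O2 replicate 1 it was -0.04 (adjusted p = 0.59). Of its exon bases, 16.2% also lie under Map3k15, a gene of the other strand, which was counted at 1.29 CPM in controls and 1.04 with H2O2.

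The other subunits of that complex were lower with H2O2. Pdhb, the partner of Pdha1 in E1, fell from 151 ± 6.53 to 133 ± 2.44 CPM (log2 fold change -0.19, SE 0.0348; edgeR adjusted p = 2.6e-04). Dlat, the E2 acetyltransferase core, fell from 113 ± 3.50 to 97.03 ± 2.72 CPM (-0.22, SE 0.0362; edgeR adjusted p = 5.0e-05). Dld, the E3 dehydrogenase that the 2-oxoglutarate dehydrogenase complex also uses, fell by 0.11 on the log2 scale (edgeR adjusted p = 9.8e-03). The E3-binding protein Pdhx fell too (-0.16; edgeR adjusted p = 0.020), but did not pass by DESeq2's test (adjusted p = 0.068) or without control replicate 2, H2O2 replicate 1 or H2O2 replicate 2 (0.053 to 0.10). Pdhb, Dlat and Dld passed in all 16 alternatives.

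Because scaling factors cancel within a library, 5 pairs of subunits were compared as log2 ratios of their counts, with an exact two-sided permutation test over libraries that cannot give a p below 0.10 with 3 against 3. The ratio of Pdha1 to Pdhb was -0.71 ± 0.00903 in controls and -0.61 ± 0.0655 with H2O2, a difference of 0.10 with all 3 H2O2 libraries above all controls (exact p = 0.10, 0.25 adjusted over the 5 pairs). This is the smallest p the design allows.

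Citrate synthase (Cs, chromosome 10, 128337734 to 128362479) joins acetyl-CoA to oxaloacetate and is the usual marker enzyme of mitochondrial content. Its level was 341, 350 and 355 CPM in control replicates 1 to 3 and 333, 343 and 349 CPM in H2O2 replicates 1 to 3. H2O2 replicate 1 was the lowest and control replicate 3 the highest of the 6, and the groups overlapped between them. The log2 fold change was -0.03 (SE 0.0294, 95% interval -0.09 to 0.03; edgeR adjusted p = 0.56), an interval that reaches from -5.96% to 2.26% of the control level. Without a library, Cs stood between -0.04 (without H2O2 replicate 3) and -0.00720 (without H2O2 replicate 1), and it passed in none of the 16 alternatives.

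NAD-dependent isocitrate dehydrogenase, which makes 2-oxoglutarate, is built from a catalytic alpha subunit (Idh3a) and regulatory beta (Idh3b) and gamma (Idh3g) subunits, and of these 3 only Idh3b passed the test. Idh3b (chromosome 2, 130279309 to 130284547) stood at 111, 106 and 105 CPM in control replicates 1 to 3 and at 112, 115 and 120 CPM in H2O2 replicates 1 to 3. Every H2O2 library was above every control, with control replicate 1 and H2O2 replicate 1 close together. Idh3b rose by 0.11 (SE 0.0360) on the log2 scale, or 7.76% (95% interval 2.38% to 13.4%; edgeR adjusted p = 0.033). The call was lost without control replicate 2 (adjusted p = 0.12), control replicate 3 (0.15) or H2O2 replicate 3 (0.14), with log2 fold changes of 0.08 to 0.13 over the 6 fits that left out a library.

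Idh3a (chromosome 9, 54586334 to 54604661) had a negative log2 fold change and did not pass. It stood at 124, 131 and 129 CPM in control replicates 1 to 3 and at 123, 118 and 121 CPM in H2O2 replicates 1 to 3. All H2O2 libraries were below all controls, the nearest pair (control replicate 1 and H2O2 replicate 1) by less than 1 CPM. The log2 fold change was -0.08 (SE 0.0343, 95% interval -0.15 to -0.01; edgeR adjusted p = 0.087). Idh3g stood at 0.10 (95% interval 0.02 to 0.18; edgeR adjusted p = 0.057) and passed with 4 of 16 alternatives, the scaling by DESeq2's size factors, upper-quartile factors or library size and the stricter filter on low counts (adjusted p = 0.032 to 0.048).

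The ratio of Idh3a to Idh3b was 0.16, 0.30 and 0.30 on the log2 scale in control replicates 1 to 3 and 0.13, 0.04 and 0.00963 in H2O2 replicates 1 to 3. All H2O2 libraries lay below all controls, by 0.19 on average (exact two-sided permutation p = 0.10, the smallest possible, and 0.25 adjusted over the 5 pairs). Leaving out any library gave a difference of -0.24 to -0.17, and an offset for exon length and GC content gave -0.18. Idh2, the NADP-dependent mitochondrial isocitrate dehydrogenase, rose by 0.12 (SE 0.0349; edgeR adjusted p = 0.012) and did not pass without control replicate 3 (0.079).

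**Figure D2:**
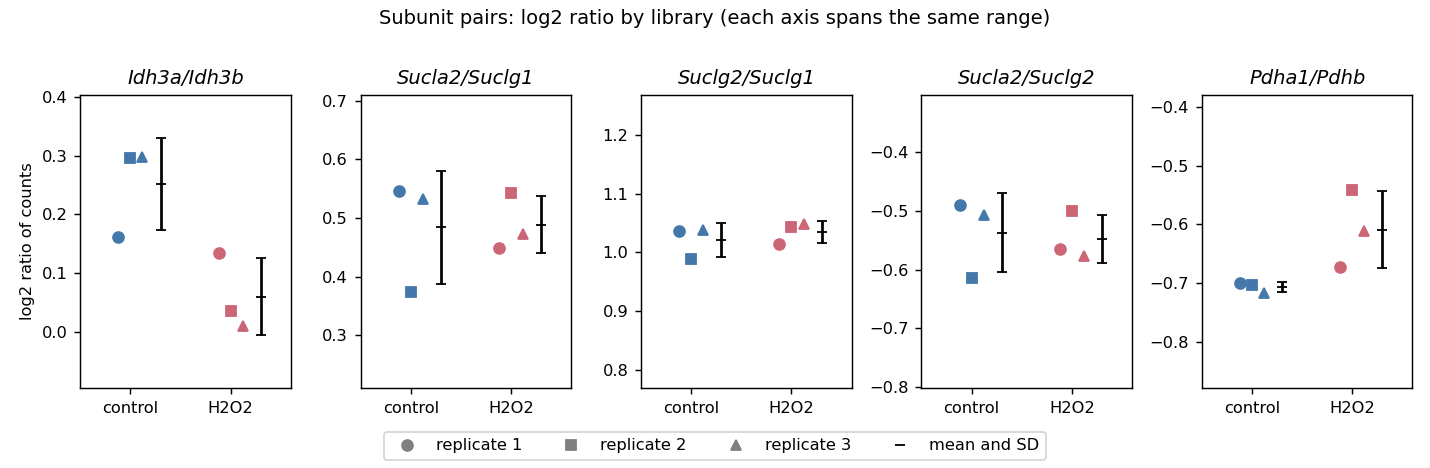
Log2 ratio of counts (y axis, the same span in each panel) for 5 subunit pairs in each library, with bars for mean ± SD. The Idh3a to Idh3b ratio is lower in every H2O2 library (0.06 ± 0.0654 against 0.25 ± 0.0783), the Pdha1 to Pdhb ratio is higher, and the 3 succinyl-CoA ligase ratios overlap between groups.

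Ogdh (chromosome 11, 6291633 to 6356642), the E1 subunit of the 2-oxoglutarate dehydrogenase complex that makes succinyl-CoA, was the only member that passed in the main analysis and in all 16 alternatives. It stood at 413, 418 and 419 CPM in control replicates 1 to 3 and at 381, 391 and 383 CPM in H2O2 replicates 1 to 3. The highest H2O2 library was well below the lowest control. Ogdh fell by 0.11 (SE 0.0277) on the log2 scale, a change of -7.61% (95% interval -11.2% to -3.90%; edgeR adjusted p = 3.6e-03). Over the alternatives its log2 fold change was -0.12 to -0.08. The other subunits of that complex fell as well: Dlst, its E2 succinyltransferase, from 324 ± 4.86 to 287 ± 8.05 CPM (-0.17, SE 0.0297; edgeR adjusted p = 9.3e-05), and the shared E3 Dld as given above. Dlst also passed in all 16 alternatives.

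Succinyl-CoA ligase, which makes succinate with ATP or GTP, is a pair of the common alpha subunit Suclg1 and either the ATP-forming beta subunit Sucla2 or the GTP-forming Suclg2. Suclg1 (chromosome 6, 73248382 to 73276911) stood at 56.8, 61.6 and 58.2 CPM in control replicates 1 to 3 and at 59.7, 56.8 and 58.4 CPM in H2O2 replicates 1 to 3. Sucla2 (chromosome 14, 73525319 to 73596142) stood at 82.9, 79.8 and 84.3 CPM in control replicates 1 to 3 and at 81.5, 82.7 and 81.1 CPM in H2O2 replicates 1 to 3. In both genes the H2O2 libraries lay inside the control range or level with its edge.

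Neither passed. Suclg1 had a log2 fold change of -0.02 (95% interval -0.10 to 0.07; edgeR adjusted p = 0.85) and Sucla2 of -0.00977 (95% interval -0.09 to 0.07; edgeR adjusted p = 0.89), and each changed sign in 2 of 16 alternatives. Suclg2 stood at 119 ± 2.90 and 119 ± 2.15 CPM. The ratio of Sucla2 to Suclg2 was -0.54 ± 0.0679 in controls and -0.55 ± 0.0408 with H2O2 (exact permutation p = 0.90), that of Sucla2 to Suclg1 differed by 0.00428 (p = 0.90, exact) and that of Suclg2 to Suclg1 by 0.01 (p = 0.50, exact). For Sucla2 the 95% interval of the change reaches from -5.77% to 4.69%, so a true change within it is compatible with these counts.

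Between succinate and fumarate stands succinate dehydrogenase, none of whose subunits is among the 9 genes, and its subunits were split. Sdha, the flavoprotein, fell from 259 ± 2.16 to 234 ± 2.77 CPM (log2 fold change -0.14, SE 0.0287; edgeR adjusted p = 5.9e-04), and Sdhb, the iron-sulphur subunit, rose from 77.2 ± 1.26 to 88.2 ± 3.82 CPM (0.19, SE 0.0388; edgeR adjusted p = 6.4e-04). Both passed in all 16 alternatives. The membrane anchor Sdhd rose by 0.12 (edgeR adjusted p = 0.020) and Sdhc stood at 0.03 (adjusted p = 0.60). With the offset for exon length and GC content Sdhd stood at 0.07 and did not pass (adjusted p = 0.21), nor did it pass without control replicate 2, control replicate 3, H2O2 replicate 2 or H2O2 replicate 3 (0.053 to 0.11).

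Fumarase (Fh1, chromosome 1, 175600374 to 175625635) hydrates fumarate to malate, in the matrix and also in the cytosol. It stood at 84.2, 82.4 and 83.2 CPM in control replicates 1 to 3 and at 74.02, 73.03 and 81.4 CPM in H2O2 replicates 1 to 3. H2O2 replicates 1 and 2 lay well below the controls, and H2O2 replicate 3 lay just below them. Fh1 fell by 0.13 (SE 0.0410) on the log2 scale, a change of -8.54% (95% interval -13.7% to -3.03%; edgeR adjusted p = 0.026). The call was lost by DESeq2's test (adjusted p = 0.061) and without each library other than H2O2 replicate 3 in turn: control replicates 1 (0.080), 2 (0.057) and 3 (0.078) and H2O2 replicates 1 (0.14) and 2 (0.15). Without H2O2 replicate 3 the log2 fold change was -0.18 (adjusted p = 1.1e-03).

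Malate dehydrogenase 2 (Mdh2, chromosome 5, 135778480 to 135790398), which closes the cycle in the matrix, stood at 346, 338 and 343 CPM in control replicates 1 to 3 and at 325, 323 and 338 CPM in H2O2 replicates 1 to 3. All H2O2 libraries were below all controls, H2O2 replicate 3 only narrowly. The log2 fold change was -0.06 (SE 0.0289, 95% interval -0.12 to -0.000788; edgeR adjusted p = 0.15), and without H2O2 replicate 3 it was -0.08 (adjusted p = 0.053). Its cytosolic relative Mdh1, of the malate-aspartate shuttle, fell by 0.11 (SE 0.0330; edgeR adjusted p = 0.020), a call lost without control replicate 2, control replicate 3 or H2O2 replicate 2 (adjusted p = 0.065 to 0.11).

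**Figure D3:**
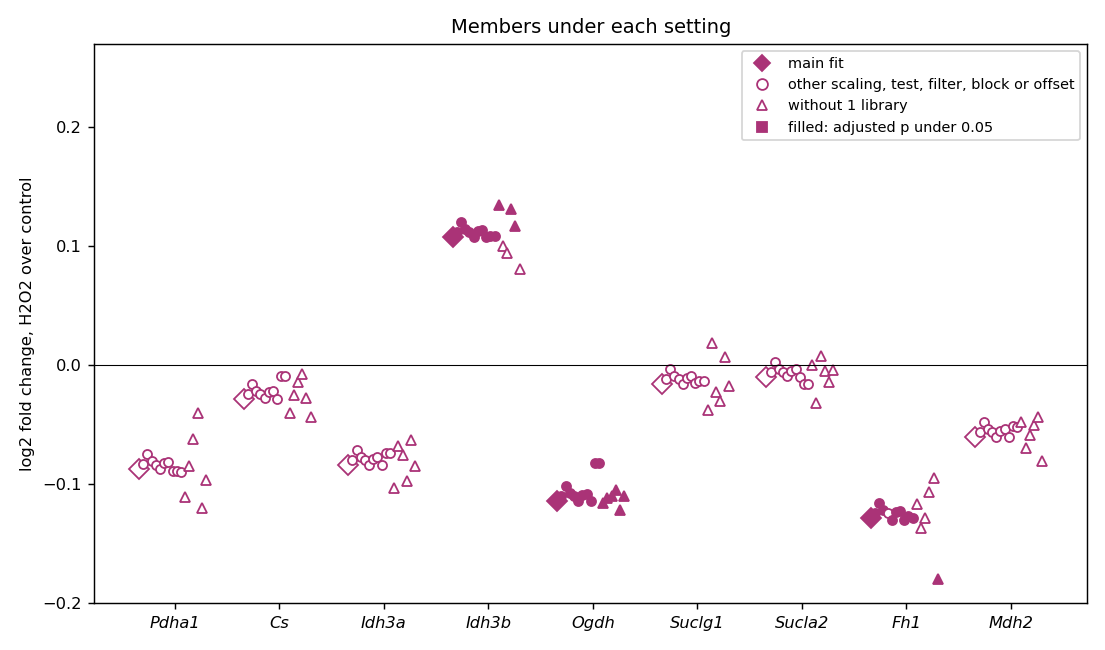
Log2 fold change of H2O2 over control (y axis) for each member in the main analysis (diamonds), with other scaling, tests, filters, block or offset (circles) and without 1 library (triangles); filled symbols have an adjusted p under 0.05. Ogdh is filled throughout (-0.12 to -0.08), and Suclg1 and Sucla2 lie on both sides of 0. Idh3b is positive throughout, with 3 of 6 triangles filled. Fh1 is negative throughout, with 1 of 6 triangles and 9 of 10 circles filled.

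Per kilobase of annotated exon, the level of the members in controls spanned from 12.8 ± 0.535 CPM per kb for Suclg1 to 96.2 ± 1.141 for Mdh2. Below Mdh2 came Ogdh at 76.4 ± 0.563, Cs at 60.3 ± 1.25 and Idh3b at 31.4 ± 0.851 CPM per kb. Idh3a (25.2 ± 0.710), Pdha1 (24.8 ± 0.923) and Fh1 (24.5 ± 0.264) did not differ beyond their spread, and Sucla2 followed at 20.6 ± 0.576. With H2O2 the order from the top was the same down to Idh3b, at 92.2 ± 2.21, 70.6 ± 0.972, 59.1 ± 1.43 and 33.8 ± 1.13 CPM per kb. Lengths are the union of annotated exons. Per kilobase of the longest transcript, the control level of Cs (116) was above that of Ogdh (101) and that of Sucla2 (36.9) above those of Pdha1 (32.5) and Fh1 (31.6). The summed CPM of the 9 genes was 1647, 1660 and 1673 in control replicates 1 to 3 and 1571, 1594 and 1619 in H2O2 replicates 1 to 3, so that every H2O2 library was below every control.

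**Figure D4:**
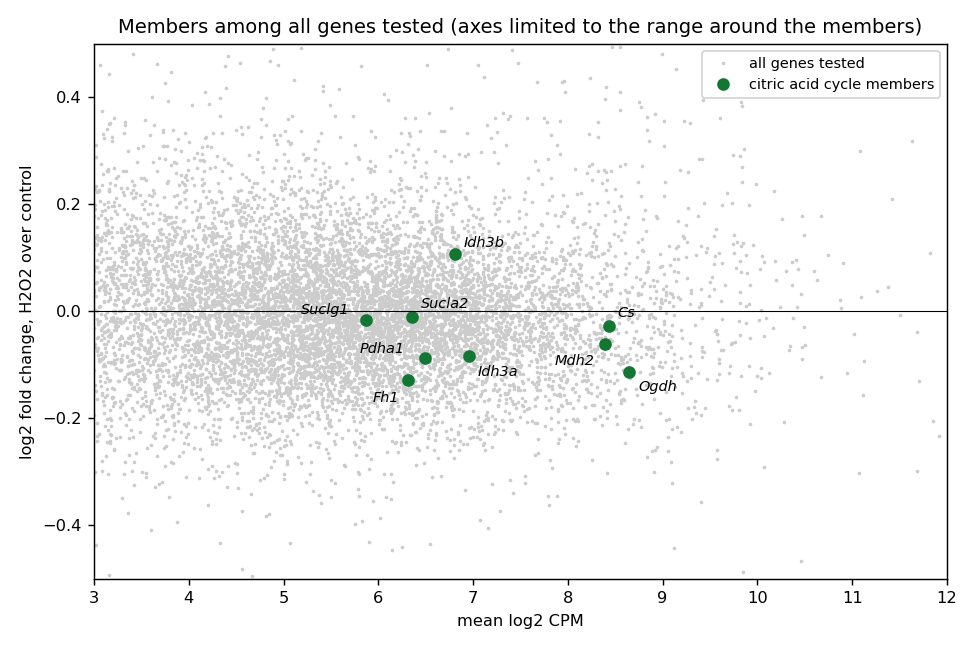
Log2 fold change of H2O2 over control (y axis) against mean log2 CPM (x axis) for all genes tested (grey) and the 9 members (green); both axes are limited to the range around the members. The members lie inside the cloud of all genes, 8 below 0 and Idh3b above it, while 48.7% of all genes tested lie above 0.

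In the rest of the pathway, 39 further genes were tested, and 5 rose, 12 fell and 22 did not pass, with a median log2 fold change of -0.04. This is 12.8% higher and 30.8% lower, against 9.7% and 10.8% of all genes tested. The lists were chosen with earlier results of these data known, so no test was run over them. Of the 13 other cycle enzymes and pyruvate dehydrogenase subunits, 3 rose and 6 fell, all described above. Of 7 kinases and phosphatases of pyruvate dehydrogenase, Pdk1, a kinase that inhibits the complex, rose by 0.10 (SE 0.0358; edgeR adjusted p = 0.043), and the other 6 did not pass. The call of Pdk1 was lost by DESeq2's test (adjusted p = 0.060) and without each library other than H2O2 replicate 2 (0.054 to 0.17). Of 7 carriers, Mpc2, a subunit of the mitochondrial pyruvate carrier, rose from 14.1 ± 0.674 to 16.6 ± 1.11 CPM (0.24, SE 0.0729; edgeR adjusted p = 0.020), and the other 6 did not pass. The citrate carrier Slc25a1 stood at -0.06 (adjusted p = 0.28) and passed with the offset for exon length and GC content, without and with the replicate block (-0.11, adjusted p = 0.022 and 0.021). Mpc2 was lost by DESeq2's test (0.055) and without control replicate 2, control replicate 3 or H2O2 replicate 2 (0.072 to 0.11).

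Among 12 enzymes that feed or drain the cycle, 6 fell and 0 rose, against 10.8% lower and 9.7% higher over all genes tested. Got1, the cytosolic aspartate aminotransferase, fell from 208 ± 1.61 to 166 ± 4.65 CPM (log2 fold change -0.32, SE 0.0309; edgeR adjusted p = 1.6e-08), and its mitochondrial counterpart Got2 fell from 269 ± 6.30 to 239 ± 1.92 CPM (-0.17, SE 0.0294; edgeR adjusted p = 1.0e-04). With Mdh1 and Mdh2 these make up the enzymes of the malate-aspartate shuttle. Pcx, which carboxylates pyruvate to oxaloacetate, fell by 0.28 (SE 0.0501; edgeR adjusted p = 1.7e-04). ATP citrate lyase (Acly), which turns exported citrate into acetyl-CoA, fell by 0.14 (edgeR adjusted p = 1.6e-03) and the cytosolic aconitase Aco1 by 0.15 (6.7e-03). Got1, Got2, Pcx, Acly and Aco1 passed in all 16 alternatives.

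**Figure D5:**
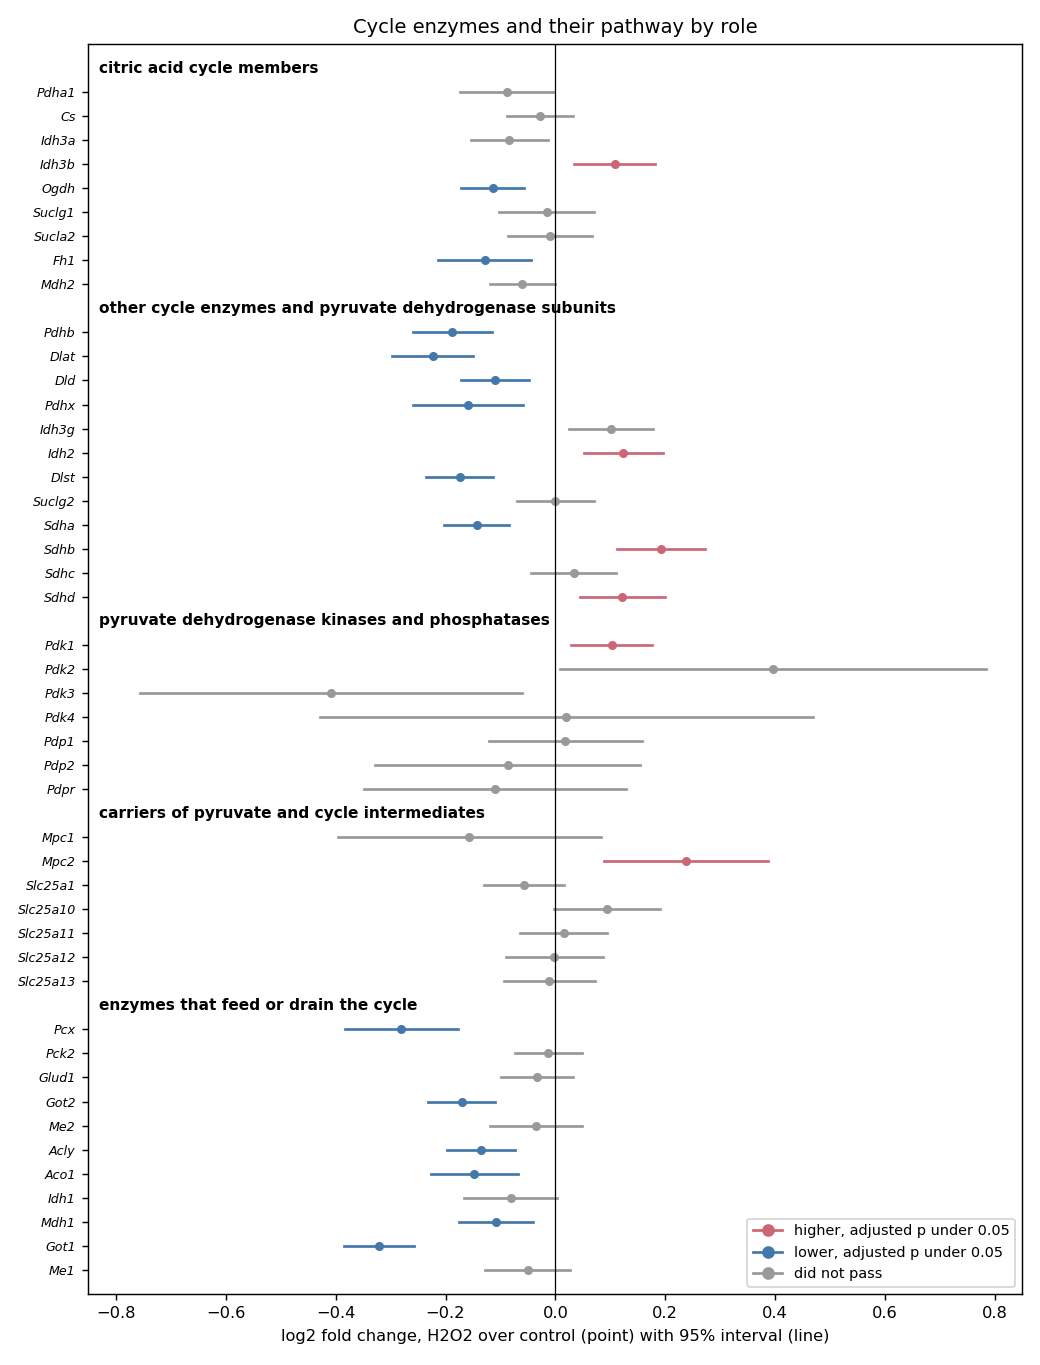
Log2 fold change of H2O2 over control (x axis) with its 95% interval for the 9 members and all but 2 of the 39 other genes of the pathway, grouped by role; red is higher and blue lower at an adjusted p under 0.05. The pyruvate dehydrogenase subunits Pdhb, Dlat, Dld and Pdhx, the 2-oxoglutarate dehydrogenase subunits Ogdh and Dlst, and 6 of 12 feeding enzymes are blue. Fh1 and Sdha, the flavoprotein of succinate dehydrogenase, are blue as well. Idh3b, Idh2, Sdhb, Sdhd, Pdk1 and Mpc2 are red. Over all genes tested, 10.8% were called lower and 9.7% higher.

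Fold changes over all genes differed mainly between short genes and the rest. Of the 3200 shortest genes (up to 2724 bases of exons), 16.2% were called higher and 6.31% lower, with a median log2 fold change of 0.05. Of the next 3201 genes (up to 4368 bases) 9.22% were higher and 11.7% lower (median -0.01), and of the 3197 after those 6.66% and 13.7% (median -0.02). Of the 3200 longest, 6.75% were called higher and 11.8% lower, with a median of -0.01. The exon lengths of the members were 3392 (Fh1) to 5779 bases (Cs), between the shortest and the longest of these sets, and those of Sdhd and Sdhb, which rose, were 1231 and 2239 bases. With the offset for exon length and GC content, Ogdh stood at -0.08 (edgeR adjusted p = 0.028), Fh1 at -0.13 (0.018) and Idh3b at 0.11 (0.024), so all 3 calls held. Of 9 listed transcripts of the mitochondrial genome, which encodes no cycle enzyme, 8 were tested and 5 fell, against 10.8% of all genes tested. In 3 of those 5 the groups overlapped. Among the 3 not called, mt-Co2 had 8 to 14 and mt-Co3 4 to 21 reads per library, near the floor. The further transcript mt-Atp6 was under the filter, while mt-Co1 had 72352 to 98962 reads. The summed CPM of these 9 transcripts was 6762 ± 500 in controls and 5618 ± 630.3 with H2O2. Of this sum, mt-Co1 alone held 3630 ± 325 and 2953 ± 397 CPM. Other transcripts of that genome were left out of it. The summed values of the groups overlapped, with control replicate 1 at 6200 and H2O2 replicate 1 at 6307. The part of this in the values of the cycle enzymes was not tested.

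The genes whose profile over the 6 libraries was closest to the mean profile of the 9 members, among 8011 eligible genes, were Actr3, Prosc and Tubb5. Their centred log2 CPM differed from the members' mean by a root mean square of 0.00697, 0.00879 and 0.0104. Their log2 fold changes were all -0.04 (edgeR adjusted p = 0.37, 0.42 and 0.32), so that likeness here is likeness to a nearly flat profile. Among the members themselves, Cs was closest to the mean profile (0.0168) and Idh3b farthest from it (0.0839).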

How the data were processed

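The deposited tables hold whole-number read counts per gene symbol, 1 per library, for 3 control and 3 H2O2 libraries. The submitters' processing notes name HTSeq, cutadapt and DESeq2 without a version, STAR 2.5.3 and bcl2fastq 2.17.1.14, and build mm10, with no role for any. The annotation and strand setting of the counting are not given in the sources used here, so reads of overlapping genes on opposite strands cannot be told apart. The 5 HTSeq summary classes were left out. Reads without a feature were 4.76% to 5.46%, ambiguous reads 3.17% to 3.30% and multiply aligned reads 11.03% to 11.68% of each library.

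Counts were filtered with filterByExpr, scaled with TMM factors and tested with edgeR 4.0.16 (limma 3.58.1, R 4.3.3). Treatment was the only term, and all 12924 genes passing the filter were tested. The procedure was also run on simulated data, with an outcome not reported here. CPM values use TMM factors. The standard error (SE) and 95% interval come from the edgeR fit to the deposited counts. Each interval is for a single gene and is not adjusted for the number of genes tested. It can therefore lie wholly below or above no change in a gene that did not pass. Alternatives were scaling by upper-quartile factors, by the size factors of DESeq2 or by nothing but library size, the test of DESeq2 1.42.0, limma-voom, no filter, a mean count of at least 100, the replicate number as a block, a loess offset (span 0.3) for exon length and GC content without and with the block, and fits without each library.

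Positions and exon lengths are from GENCODE M21 (mm10) and matched 12798 tested genes, and promoters are from RefSeq. Apart from Map3k15, whose exons overlap Pdha1, no other gene's transcript matched a member's longest transcript at 95% identity over 100 bases.

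The members and lists were chosen with earlier results of these data known. The rule named all 9 members, up to 6 passing genes of each other pathway list by smallest p or its most abundant gene, the most abundant gene of each marker list, and the 3 genes most like the members (log2 CPM with a prior count of 2, averaging 4 or more). Idh2, Pdhx, Sdhd, Sdhc, Slc25a1, Idh3g, Suclg2, single markers and single mitochondrial transcripts were named after their values were seen. A few other genes are counted with their list but not reported here.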

Additional observations from a re-analysis of the deposited data

How the results depend on the processing

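DESeq2's test called 1 member lower in place of 2, and 3 other pathway genes higher in place of 5. Over the fits that left out 1 library, members higher numbered 0 to 1, members lower 1 to 2, other pathway genes higher 1 to 4, and all genes lower 926 (without H2O2 replicate 1) to 1313 in place of 1395. The median log2 fold change of other pathway genes was then -0.0425 to -0.00986, the value nearest 0 being that without control replicate 2. All genes higher numbered 891 to 1178 in place of 1254. Higher calls outnumbered lower with upper-quartile factors (1455 and 1190), library size only (1349 and 1267), no filter (1343 and 1308) and the stricter filter (1337 and 1321), and made up 45.9% to 55.0% of calls over the alternatives. The cause of these differences was not tested, and only the fits that left out 1 library have 5 libraries in place of 6. Other pathway genes lower (10 to 13, against 12) and the median of the members (-0.08 to -0.04, against -0.06) stayed within 1.5 times or within the spread between libraries in all 16 alternatives.

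Same-numbered libraries did not deviate together: the correlations of their deviations from the group means were 0.00224, 0.0299 and -0.0261, so the numbers were not taken as pairs. With the replicate number as a block, 1294 genes were higher and 1444 lower, 1 member was higher and 2 lower, and no call of a member changed.

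Among single genes, 33 gene-and-setting values lost a call, 6 gained one and 0 reversed. The 95% interval of Suclg1, the member with the fewest reads, spans log2 fold changes of -0.10 to 0.07, so differences within it are compatible with the counts.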
